A study of Mus musculus with 3 samples.

Results

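Calca, Calcb, Tac1, Sst and Nppb, the genes of the classical peptides of pain and itch fibres, were followed in neurons of the mouse dorsal root ganglion (DRG) before and after nerve injury. They were chosen by gene symbol, as 5 of the 31053 genes in the count matrices. Single cells of the L3 and L4 DRGs of male C57BL/6J mice of postnatal week 13 were measured in 1 naïve (untreated) library, 1 library 7 days after a double sided spared nerve injury (SNI) and 1 library 14 days after it. Each library pooled 8 DRGs of 2 mice, so the mice cannot be told apart. With no replicate of any condition, differences are described without a test. In SNI some branches of the sciatic nerve are cut and others left intact, so that injured and spared neurons share a ganglion.

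Cells were captured in droplets and each mRNA molecule was counted once through its unique molecular identifier (UMI). Levels are given as CPM, the UMIs of a gene per 1000000 UMIs of the pooled cells. The intervals in brackets are exact 95% intervals of counting error alone and do not cover the spread between cells or between mice. Neurons were the cells with UMIs of at least 5 of 10 pan-neuronal markers, none of which is a peptide gene, with these markers making up at least 2 per mille of their UMIs. This gave 125 neurons of 3152 naïve cells, 199 of 2682 at day 7 and 145 of 3828 at day 14, or 469 of 9662 cells in all. All 10 markers were found in 105, 60 and 116 of these cells. The same markers set the gate, so this count does not check the neuronal label.

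The day 7 neurons stood apart. Their median was 2517 UMIs a cell, against 65824 in the naïve and 80010 in the day 14 library, because 142 of the 199 had fewer than 10000 UMIs (18 of 125 and 26 of 145 in the other libraries). These shallow day 7 cells had a summed level of 6 myelinating Schwann cell markers of 8396 CPM, against 925 CPM in the deep neurons (at least 10000 UMIs) of that library, and they held 5.14% of its neuronal UMIs. Values by cell type below use the 107, 57 and 119 deep neurons. Whether SNI, capture or sequencing set the number of deep neurons cannot be told apart here. Libraries shared 1 to 6 cell barcodes by pair. The summed level of 8 injury genes, among them Atf3 and Sprr1a, was 507 CPM in naïve neurons, 2919.9 CPM at day 7 and 2335 CPM at day 14.

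Peptidergic sensory neurons make their transmitters as long precursors that are cut at basic residues, packed into dense-core vesicles and released both in the spinal cord and in the skin. Calca and Calcb encode calcitonin gene-related peptide (CGRP), a vasodilator that also facilitates nociceptive transmission. Tac1 encodes substance P and neurokinin A, which act on tachykinin receptors in pain and neurogenic inflammation. Nppb encodes B-type natriuretic peptide, which passes itch signals from sensory neurons to spinal neurons. Sst encodes somatostatin, an inhibitory peptide found in the same itch neurons.

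The bases that encode each mature peptide show what is counted as separate genes. They were read from GENCODE vM21 transcripts (build GRCm38, the assembly also called mm10) and are written 5′ to 3′ along the mRNA. In the CGRP pair, capitals mark the bases at which both genes differ.
Calca, alpha-CGRP, chr7:114632470-114632580, minus strand: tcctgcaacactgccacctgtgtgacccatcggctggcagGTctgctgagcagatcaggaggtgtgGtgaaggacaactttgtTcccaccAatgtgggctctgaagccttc
Calcb, beta-CGRP, chr7:114721994-114722104, plus strand: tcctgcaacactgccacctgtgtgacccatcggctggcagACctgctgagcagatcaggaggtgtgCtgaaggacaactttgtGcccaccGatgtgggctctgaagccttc
Tac1, substance P, chr6:7556732-7556764, plus strand: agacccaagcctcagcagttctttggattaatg
Sst, somatostatin-14, chr16:23889732-23889773, minus strand: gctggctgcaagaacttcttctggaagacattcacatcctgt

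The CGRP stretches differ at 5 of 111 bases, which touch 4 of 37 codons and change 3 residues. Both lie in exon 4 of 5, and the genes are neighbours on chromosome 7, Calca at 114631478-114636357 on the minus strand and Calcb at 114718643-114723365 on the plus strand. Over the whole main transcripts the longest run shared by both is 60 bases, but over their last 300 bases, where a 3′ library is read, it is 12 bases. Calca has 7 annotated transcripts with several 3′ ends, at 114631478 in the form that carries CGRP and at 114633293 in the form that ends at the calcitonin exon, and the counts sum them, so Calca UMIs do not separate CGRP from calcitonin mRNA. Tac1 lies on chromosome 6 at 7554879-7565834, Sst on chromosome 16 at 23889573-23890958, in whose exon 2 somatostatin-14 is encoded, and Nppb on chromosome 4 at 147985788-147987205. None of the 5 overlaps another annotated gene.

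All 5 genes were nearly confined to neurons, and they split into a broad and a rare set. Calca UMIs were found in 79 of 107 naïve, 47 of 57 day 7 and 111 of 119 day 14 deep neurons. For Calcb these were 95, 45 and 93 cells, and for Tac1 90, 49 and 103 cells. Sst was found in 7, 4 and 11 deep neurons and Nppb in 11, 9 and 18.

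In all other cells together, Calca stood at 7.22, 12.6 and 15.7 CPM in the naïve, day 7 and day 14 libraries, Calcb at 2.35, 3.14 and 2.65 CPM, and Tac1 at 3.61, 5.24 and 6.36 CPM. Sst had 3, 0 and 2 UMIs there, where the floor of 3 counts set for the 0 is 0.225 CPM, and Nppb 2, 1 and 6 UMIs. The level of Calca in neurons was 97.7 times, 112 times and 98.3 times that in other cells. Calca was at a like low level in satellite glia-like cells (7.90, 12.1 and 14.4 CPM) and in myelinating Schwann-like cells (6.82, 12.6 and 14.5 CPM). Of the summed UMIs of the 5 genes, Calca made up 46.2% inside and 53.2% outside neurons in the naïve library, 58.2% and 59.8% at day 7, and 59.1% and 62.6% at day 14. Calcb made up 9.07% inside and 14.9% outside at day 7. Nppb made up 4.92% inside and 1.16% outside in the naïve library and 2.62% and 0.356% at day 7, where the outside counts were 2 and 1 UMIs. Levels outside neurons were not separated from free RNA. Shares of non-neuronal cells with a UMI were 2.58%, 5.84% and 7.06% for Calca, and whether these come from free RNA was not tested. Median depth was 2999, 4080 and 4092 UMIs in those cells.

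**Figure D1:**
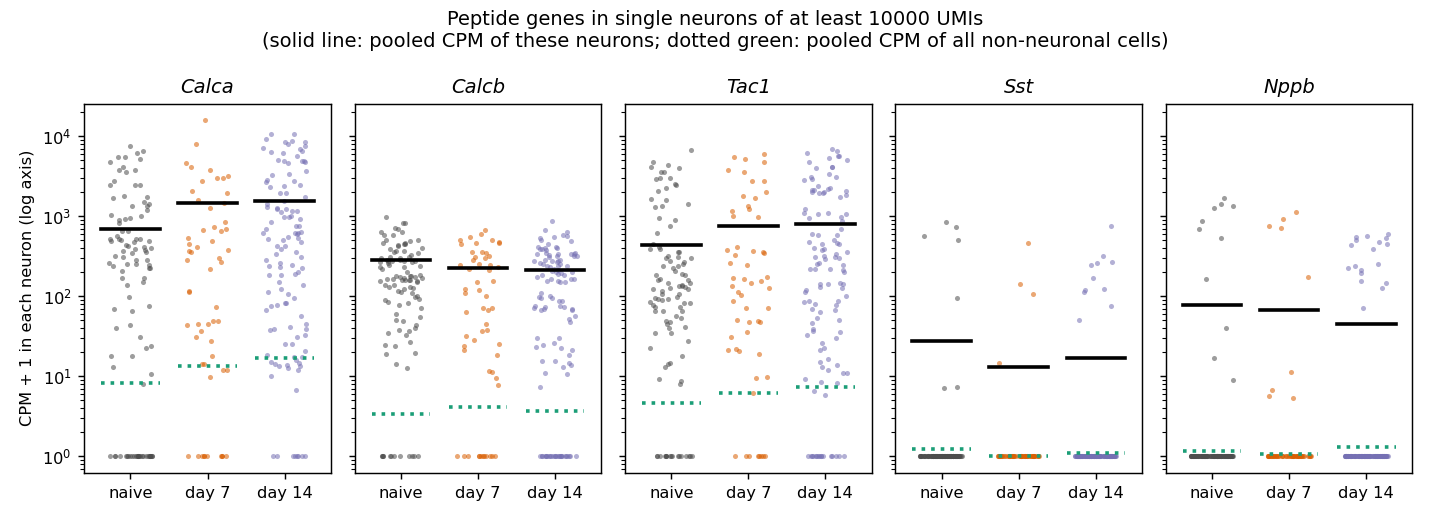
CPM + 1 of each peptide gene (log axis) in each deep neuron of the naïve, day 7 and day 14 libraries, with the pooled CPM of the deep neurons as a solid line and of all non-neuronal cells as a dotted line. Calca, Calcb and Tac1 spread over several orders of magnitude among neurons, whereas Sst and Nppb are at 0 in most neurons and high in a few, and the dotted lines lie far below the pooled neuronal level.

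Detection depended on depth. Over all gated neurons, Tac1 was found in 80.0% of naïve cells [71.9, 86.6], 33.7% at day 7 [27.1, 40.7] and 77.9% at day 14 [70.3, 84.4]. When each cell was thinned to 5000 UMIs, which left out 13, 129 and 18 shallower neurons, the expected shares were 50.7%, 49.3% and 56.9%. For Calca the shares of 70.4%, 53.8% and 86.9% became 57.6%, 56.8% and 65.7%. For Calcb 82.4%, 40.7% and 69.0% became 53.2%, 45.5% and 43.5%. At 2000 UMIs, which left out 8, 88 and 10 neurons, Tac1 was at 36.4%, 26.5% and 44.6% and Calca at 44.7%, 46.2% and 54.7%. The lower day 7 share of Tac1 was thus seen at 2000 UMIs and not at 5000 UMIs, where most shallow day 7 cells had been left out. In non-neuronal cells thinned to 5000 UMIs, Calca was found in 2.64%, 4.996% and 6.02% and Tac1 in 1.43%, 2.30% and 2.95%.

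Calca, the main CGRP gene, was at 705 CPM [688, 723] in naïve neurons, 1406 CPM [1377, 1435] at day 7 and 1547 CPM [1525, 1569] at day 14. The intervals do not overlap between naïve and either injured library, but they leave out the spread between cells. The ratio over naïve was 1.99 at day 7 and 2.19 at day 14, or 0.99 [0.95, 1.04] and 1.13 [1.09, 1.17] on the log2 scale. At day 7 this rested on few cells, since 1 neuron held 3375 of the 9255 Calca UMIs (36.5%) and the top 3 held 59.5%. In the naïve and day 14 libraries the top 3 neurons held 28.01% and 21.7%. Without the 3 top cells of each library the log2 ratio was 0.26 at day 7 and 1.26 at day 14, and when every neuron was weighted equally it was -0.13 and 0.85. Over deep neurons the median cell was at 261 CPM in the naïve, 269 CPM in the day 7 and 428 CPM in the day 14 library.

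Tac1 had a similar pattern, with 435 CPM [421, 449] in naïve neurons, 716 CPM [696, 737] at day 7 and 799.5 CPM [784, 815] at day 14. Its log2 ratio was 0.72 [0.66, 0.78] at day 7 and 0.88 [0.82, 0.93] at day 14. The neuron with most Calca at day 7 was also the one with most Tac1, with 1298 of 4714 UMIs (27.5%). Without the 3 top cells the log2 ratio was 0.15 at day 7 and 1.01 at day 14, and with equal weights -0.90 and 0.47. With equal weights over the deep neurons alone it was 0.44 and 0.62. In deep neurons the median was 123, 144 and 215 CPM.

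Calcb, the second CGRP gene, was lower in both injured libraries. It stood at 285 CPM [274, 297] in naïve neurons, 219 CPM [208, 231] at day 7 and 212 CPM [204, 221] at day 14, and the log2 ratios were -0.38 [-0.47, -0.28] and -0.42 [-0.50, -0.34]. No single neuron dominated it, as the highest held 6.64%, 12.1% and 7.06% of its UMIs. Both CGRP genes thus differed from naïve in opposite directions in the pooled neurons.

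Sst was at 26.2 CPM [22.9, 29.9] in naïve neurons, 11.4 CPM [8.96, 14.3] at day 7 and 15.8 CPM [13.7, 18.1] at day 14. Its log2 ratios were -1.20 [-1.60, -0.82] and -0.73 [-1.02, -0.45], but 3 cells held 83.9%, 97.3% and 54.5% of its UMIs, and without the 3 top cells the day 14 ratio was 0.75. Nppb was at 75.1 CPM [69.4, 81.2], 63.3 CPM [57.4, 69.7] and 43.6 CPM [40.1, 47.4], with log2 ratios of -0.25 [-0.43, -0.07] and -0.78 [-0.95, -0.62]. For both genes the pooled level mixes the level per itch neuron with the number of such neurons, which is taken apart below.

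Of the 5 genes, 1 (Sst) was at least 2-fold lower at day 7 and 0 at day 14, on a scale of CPM plus a pseudocount of 1. Among the 11106 genes with at least 100 UMIs in neurons, 0.711% were at least 2-fold lower at day 7 and 0.603% at day 14. At least 2-fold higher were 0 of the 5 at day 7, where Calca lay just under the limit, and 1 (Calca) at day 14, against 2.18% and 3.11% of all genes. The median log2 ratio was -0.24 at day 7 and -0.42 at day 14 over the 5 genes and 0.02 and 0.07 over all 11106. All 5 passed the limit of 100 UMIs.

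**Figure D2:**
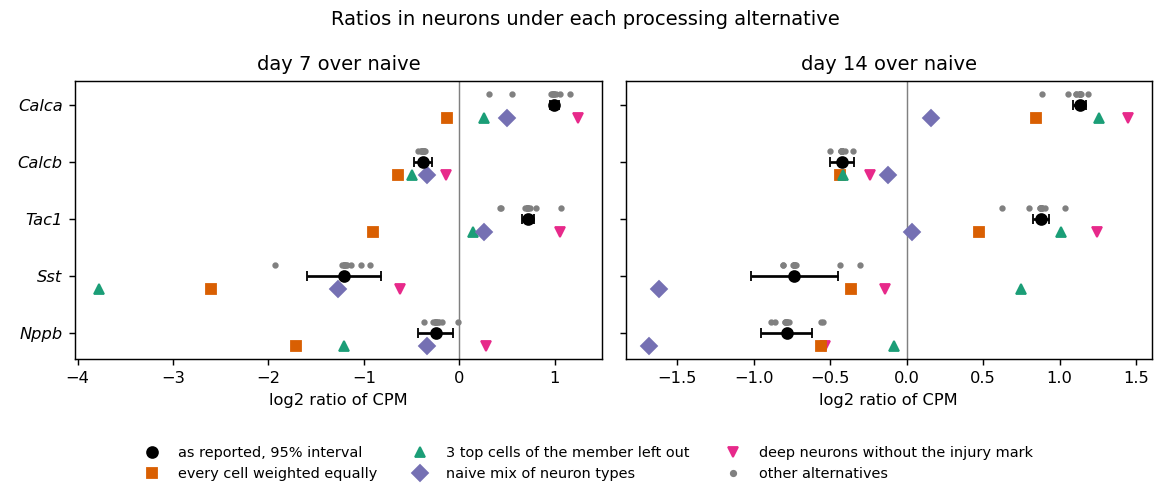
Log2 ratio of the CPM of each peptide gene in neurons, day 7 (left) and day 14 (right) over naïve, as reported (black, with its 95% counting interval) and under each processing alternative. Calca and Tac1 at day 7 range from below 0 with equal weights for all cells to above 1 in deep neurons without the injury mark, while Calcb stays below 0 under every alternative shown.

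Deep neurons were then assigned to types by markers other than the peptide genes and named after those markers. Described here are 4 of these types. Cells scored by Mrgprd and Lpar3, which mark non-peptidergic nociceptors, numbered 38, 18 and 23, those by Il31ra and Osmr, receptors for the itch cytokines interleukin 31 and oncostatin M, 9, 5 and 18, those by Th and Fam19a4, found in low-threshold C fibres, 30, 10 and 13, and those by Nefh and Ntrk3, genes of large neurons, 14, 13 and 26. The last 2 labels were weak, because the leading genes of each of these types held 1 marker of its list (Slc17a8 and Ntrk2).

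Neurons of different types were captured in different shares in the 3 libraries, with Mrgprd and Lpar3 cells at 35.5%, 31.6% and 19.3% of the deep neurons. When each type of neuron was weighted by its share of UMIs in the naïve library, the log2 ratios at day 14 were 0.16 for Calca, 0.03 for Tac1 and -0.12 for Calcb, and those at day 7 were 0.50, 0.26 and -0.34. This weighting was chosen after the data were seen. Fewer cells of a type captured and fewer cells of it present cannot be told apart.

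Calcb was mainly a gene of the Mrgprd and Lpar3 cells, which held 73.3%, 68.8% and 51.5% of its UMIs. Its level in them was 450.5 CPM in the naïve, 347 CPM in the day 7 and 379.5 CPM in the day 14 library. The lowest naïve cell of this type was at 112 CPM and every one of the 79 cells had a Calcb UMI. The log2 ratio was -0.38 [-0.49, -0.26] at day 7 and -0.25 [-0.35, -0.15] at day 14. Calca in the same cells was at 453, 822 and 548 CPM, with medians per cell of 362, 466 and 479 CPM. Tac1 there was at 127, 202 and 230 CPM.

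Th and Fam19a4 cells had little Calca in the naïve library, 7.88 CPM with UMIs in 6 of 30 cells, and 109 CPM and 40.5 CPM at days 7 and 14. The medians were 0, 12.1 and 13.0 CPM, close to the level in non-neuronal cells, and the highest cells were at 3772 CPM at day 7 and 1134.5 CPM at day 14. The cell with most Calca UMIs held 47 of 101 at day 7 and 42 of 60 at day 14. In the Nefh and Ntrk3 cells Tac1 was at 1792, 1223 and 1288 CPM and Calca at 736, 815 and 642 CPM.

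**Figure D3:**
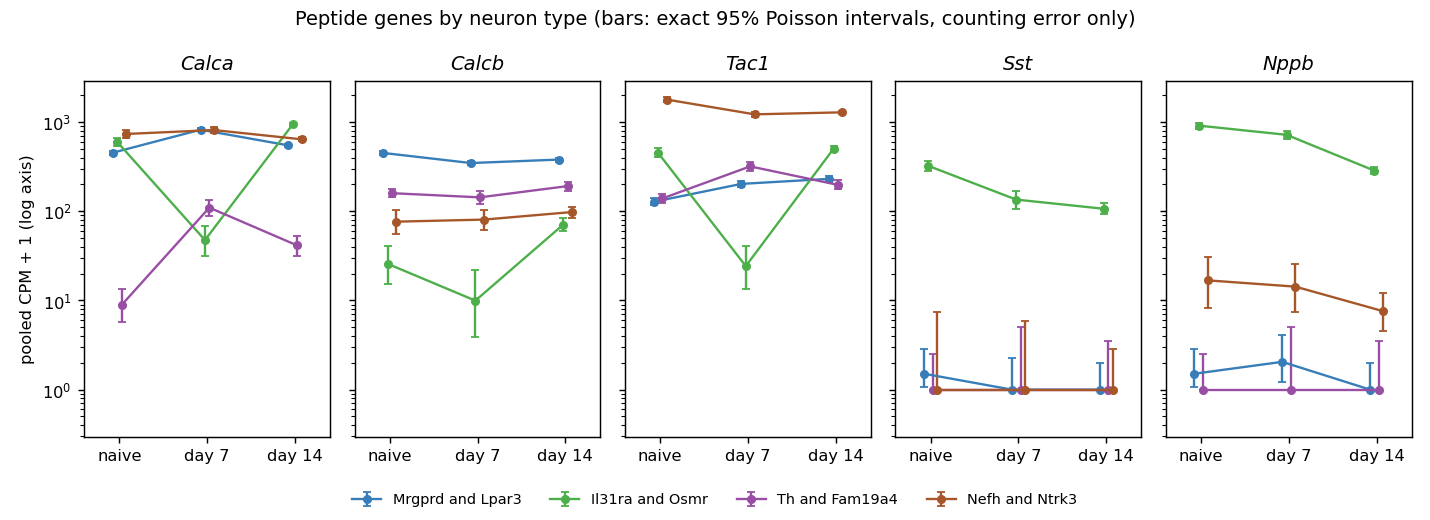
Pooled CPM + 1 (log axis) of each peptide gene in 4 types of deep neurons, named by their markers, in the naïve, day 7 and day 14 libraries, with exact 95% Poisson intervals. Among the types shown, Calcb was highest in Mrgprd and Lpar3 cells, and Sst and Nppb were high in Il31ra and Osmr cells alone.

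The peptide level also differed with the injury genes of the cell. A cell was taken as marked when Atf3, a transcription factor induced by axon injury, and Sprr1a, a protein of regenerating axons, together reached 50 CPM. This held for 6 of 107 deep neurons in the naïve, 14 of 57 in the day 7 and 31 of 119 in the day 14 library. Shallow neurons, 142 of the 199 at day 7, are left out of these counts and of the comparison below. Sprr1a was found in 69.0% of the shallow day 7 neurons (807 CPM) and in 47.4% of the deep ones (614 CPM). The share of marked deep neurons therefore does not stand for all day 7 neurons. In a shallow cell any UMI of either gene passes the limit.

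Over all deep neurons without the mark, Calca was at 691, 1636 and 1885 CPM and Tac1 at 415, 867 and 985 CPM in the naïve, day 7 and day 14 libraries. Calcb was at 294, 267.5 and 249 CPM. Marked deep neurons were at 833, 742 and 496 CPM of Calca, 653, 283 and 215 CPM of Tac1, and 145, 45.02 and 101 CPM of Calcb. After SNI the unmarked neurons were thus above the marked ones for all 3 genes, while in the naïve library, with 6 marked cells, Calca and Tac1 were higher in the marked ones. The ranges overlapped, since the highest marked cell reached 4622 CPM of Calca at day 7 and 7049.9 CPM at day 14.

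**Figure D4:**
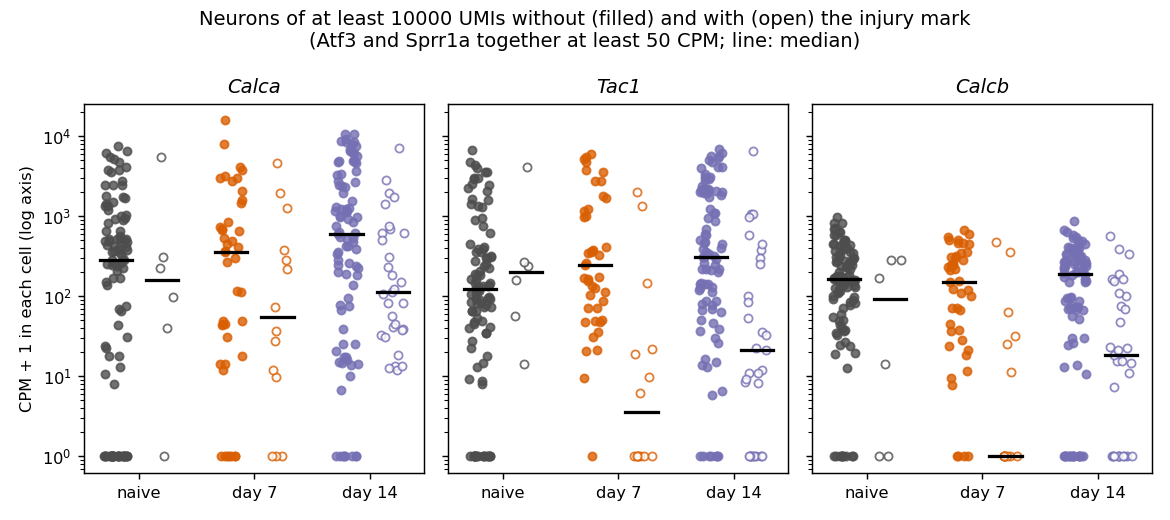
Calca, Tac1 and Calcb in each deep neuron as CPM + 1 (log axis), without (filled) and with (open) the injury mark of Atf3 and Sprr1a, with the median as a line. In both injured libraries the median of the open points lies below that of the filled ones, for Calca 53.6 against 351 CPM at day 7 and 113 against 602 CPM at day 14.

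The median cell showed the same order for Tac1, with 2.57 CPM in marked and 245 CPM in unmarked neurons at day 7 and 20.1 and 311 CPM at day 14. For Calcb the medians were 0 and 151 CPM at day 7 and 17.5 and 188 CPM at day 14. Within the Nefh and Ntrk3 cells, Tac1 was at 51.5 CPM in 4 marked and 1963 CPM in 9 unmarked cells at day 7, and at 159.7 CPM in 10 marked and 2463 CPM in 16 unmarked cells at day 14. Calca in them was at 24.0 and 1314 CPM at day 7 and at 192 and 1109 CPM at day 14, and Calcb at day 14 was at 102 CPM in the marked and 91.9 CPM in the unmarked cells. Some other types did not follow this order for Tac1. Mrgprd and Lpar3 cells at day 7 were at 468 CPM of Tac1 in 3 marked and 169 CPM in 15 unmarked cells, and Th and Fam19a4 cells at day 14 at 266 CPM in 2 marked and 186 CPM in 11 unmarked cells. Cells of 1 library are not replicates of a condition, so these differences between cells carry no test. Marked and unmarked neurons can also hold different types, and type markers can be lower in marked cells. Their part in the result was not tested.

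Sst and Nppb were held by a single small type. Il31ra and Osmr cells carried 99.1%, 100% and 100% of the Sst UMIs and 98.1%, 96.4% and 97.5% of the Nppb UMIs of all neurons. Both genes are also among the leading genes of these cells, although neither was used to define them. Narrowed to deep neurons with UMIs of both Il31ra and the serotonin receptor Htr1f, there were 7 such cells in the naïve, 4 in the day 7 and 17 in the day 14 library.

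In these cells Nppb was at 1085 CPM [1002, 1174] in the naïve, 868 CPM [785, 957] in the day 7 and 322 CPM [295, 350] in the day 14 library. The 7 naïve cells held 50 to 162 Nppb UMIs each, the 4 cells at day 7 held 72 to 134, and the 17 cells at day 14 held 0 to 69. Per cell the range was 529 to 1704 CPM with a median of 1253 CPM in the naïve library, 717 to 1119 CPM with a median of 826 CPM at day 7, and 0 to 599 CPM with a median of 392 CPM at day 14. At day 14, 13 of the 17 cells were below the lowest naïve cell and all 17 below the naïve median. The log2 ratio over naïve was -0.32 [-0.51, -0.14] at day 7 and -1.75 [-1.92, -1.59] at day 14. In all neurons the day 14 ratio was -0.78, with 17 such cells of 119 deep neurons there and 7 of 107 in the naïve library.

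Sst in the same cells was at 383 CPM [334, 436], 162 CPM [127, 203] and 119 CPM [103, 137]. It was found in 5 of 7, 4 of 4 and 11 of 17 cells, with medians of 509, 124 and 111 CPM per cell. The ranges of 0 to 842 CPM in the naïve and 0 to 750 CPM in the day 14 library overlapped, and the log2 ratios were -1.24 [-1.64, -0.86] at day 7 and -1.68 [-1.96, -1.40] at day 14.

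The receptors that mark these cells differed less. UMIs of Il31ra and Htr1f were required of every cell here, so cells that lacked either could not enter. The levels of both genes were thus partly set by this choice and are no free comparison for Nppb and Sst. Il31ra was at 523, 527 and 419 CPM, Htr1f at 348, 307 and 281 CPM, and the neuropeptide Y receptor Npy2r at 656, 810 and 669 CPM. Osmr was at 1025, 844 and 655 CPM. The log2 ratio at day 14 was -0.32 for Il31ra, -0.31 for Htr1f, 0.03 for Npy2r and -0.65 for Osmr. Below the lowest naïve cell lay 6 of the 17 day 14 cells for Il31ra, 7 for Htr1f, 3 for Npy2r and 7 for Osmr, beside 13 for Nppb. Below the naïve median lay 8, 8, 6 and 15 of them, beside 17 for Nppb. Nts, the gene of neurotensin, was at 358, 266 and 849 CPM, with a median of 296 CPM per cell at day 14, where 2 cells held 555 and 479 UMIs.

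Of the 17 cells at day 14, 5 carried the injury mark, and in these Sst had 0 UMIs and Nppb was at 156 CPM. In the 12 unmarked cells Nppb was at 429 CPM with a median of 459 CPM, and Sst at 197 CPM. The 6 unmarked naïve cells were at 1059.7 CPM of Nppb and 363 CPM of Sst, and the 1 marked naïve cell was above both, at 1253 and 509 CPM. One of the 5 marked cells, scored outside the Il31ra and Osmr type, had 1 Il31ra UMI and neither Osmr nor Nppb. Without it the day 14 level was 342 CPM of Nppb and 127 CPM of Sst.

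**Figure D5:**
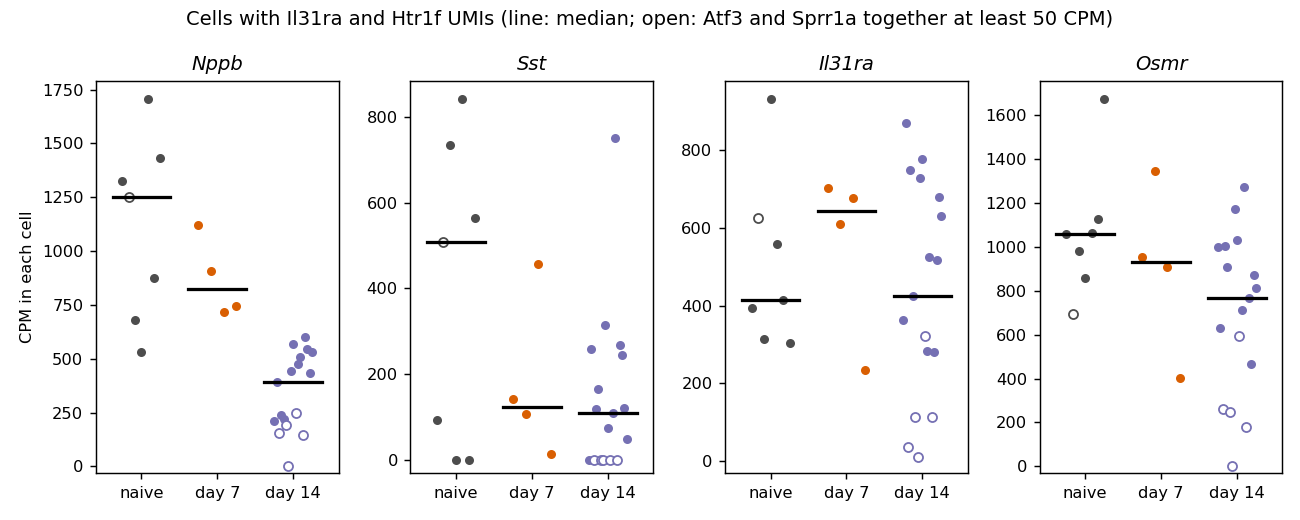
CPM of Nppb, Sst, Il31ra and Osmr in each deep neuron with UMIs of Il31ra and Htr1f, with the median as a line and cells that carry the injury mark as open circles. The 17 cells at day 14 reach at most 599 CPM of Nppb, where the 7 naïve cells range from 529 to 1704 CPM, while the Il31ra medians of the naïve and day 14 cells are close to each other. Il31ra UMIs were required for a cell to be drawn, which partly sets its level.

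Which of the peptide genes shared a cell was counted in deep neurons. At 500 CPM or more, 36 naïve deep neurons expressed Calca, 23 Tac1 and 20 both. At day 7 these were 20, 16 and 11 cells and at day 14 57, 40 and 35. High Calcb was found in only 11, 5 and 8 cells, and it met high Tac1 in 1, 1 and 2 cells. The cells with 500 CPM or more of Nppb numbered 7, 4 and 5. None of them reached that level of Tac1 in any library, and 1 naïve cell reached it for Calca. With so few high cells, small overlaps do not show that these genes avoid each other, and this was not tested. By the mean rank correlation over neurons of each library, a description over cells that share depth and library, the genes most like Calca were Cd9 (rho 0.52) and Tmem255a (0.52), and those most like Tac1 were Bex1 (0.57), Adcyap1 (0.54) and Gpx3 (0.53). Pirt (0.50) and Rab27b (0.50) were most like Calcb, and Npy2r was among the 5 most like both Sst (0.47) and Nppb (0.49). In deep neurons alone the lists differed. Cd9 (0.68) still led for Calca and Rab27b (0.70) for Calcb, but Rit2 (0.59) led for Tac1, with Adcyap1 not among the 5, and Gm20139 led for Sst (0.70) and Nppb (0.65), with Npy2r in neither list.

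Short promoter stretches are shown for Calca and Tac1, because peptide genes of sensory neurons are textbook targets of cAMP signalling. Both hold the letters of TGACGCAA, a variant of the cAMP response element, and neither holds the full element TGACGTCA. The motifs TGACGTCA, TGACGCAA and the E-box CACGTG were searched on both strands of RefSeq promoters (GRCm38.p6, 250 bases before to 50 after the start), which covered 4 of the 5 genes. Capitals mark the match.
Calca, chr7:114636399-114636438, minus strand: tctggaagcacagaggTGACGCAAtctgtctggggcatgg
Tac1, chr6:7554845-7554884, plus strand: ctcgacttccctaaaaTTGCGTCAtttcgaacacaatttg

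Positions are counted from the RefSeq start, which differs from the GENCODE gene start in the coordinates above for Tac1 and Sst, but not for Calca. The Calca match begins 65 bases before that start and the Tac1 match, on the opposite strand, 200 bases. Sst holds TGACGTCA 48 bases before its RefSeq start, which lies inside the gene as GENCODE annotates it. TGACGTCA was found in 1.79% of the 32851 promoters, TGACGCAA in 0.490% and CACGTG, which Tac1 also held, in 7.15%. None of these motifs was in the Nppb window. A match describes letters only.

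Genes of the machinery that turns precursors into peptides were followed as a list. All 12 genes of a processing list passed the limit of 100 UMIs, and 0 of 12 were 2-fold lower or higher at either day, where few of all genes were (0.711% lower and 2.18% higher at day 7, 0.603% and 3.11% at day 14), so this count does not set the list apart. Their median log2 ratio was -0.13 at day 7 and 0.08 at day 14, beside 0.02 and 0.07 over all genes. Pcsk2, a convertase that cuts precursors, was at 179, 207 and 193 CPM, and Pcsk1, its relative, at 11.9, 12.6 and 16.3 CPM. Cpe, which trims the basic residues, was at 762, 601 and 579 CPM, and Pam, which amidates CGRP and substance P, at 288, 239.5 and 249 CPM. The largest differences were those of Cadps2, a vesicle priming factor, with -0.98 at day 7, and of Scg2, a granin of dense-core vesicles, with 0.82 at day 14.

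Several receptors of the peptides had higher levels in other cells of the ganglion than in neurons. Of 17 receptor and clearance genes, 6 passed the limit in neurons, and 0 of 6 were 2-fold different at either day, beside the same small shares of all genes, so that this count does not set them apart either. Calcrl, the CGRP receptor, was at 345, 326 and 259 CPM in endothelial-like cells and at 2.82, 4.86 and 3.55 CPM in neurons. Ramp1, which makes Calcrl a CGRP receptor, was at 113, 90.4 and 103.5 CPM in mural-like cells and at 0.588, 0.759 and 0.315 CPM in neurons. Ramp2, which makes it an adrenomedullin receptor instead, was at 509, 437 and 516 CPM in endothelial-like cells and at 152, 142 and 147 CPM in satellite glia-like cells.

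Npr1, the receptor of natriuretic peptides, was at 144, 100.2 and 116 CPM in endothelial-like cells and had 5, 3 and 4 UMIs in neurons. Npr3, their clearance receptor, was at 29.95, 43.8 and 41.4 CPM in myelinating and at 44.3, 60.6 and 19.0 CPM in non-myelinating Schwann-like cells. Mme, a peptidase that degrades substance P, was at 230.1, 249.6 and 249.4 CPM in myelinating Schwann-like cells and at 1.41, 3.95 and 2.45 CPM in neurons. The somatostatin receptor Sstr2 was found in neurons, at 4.70, 7.59 and 8.99 CPM, although the sums are 40, 50 and 114 UMIs. Tacr1, the substance P receptor, had 2 UMIs in all neurons together.

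Among 16 other peptide genes of sensory neurons, 7 passed the limit of 100 UMIs. At day 7, 3 were at least 2-fold higher and 2 lower, beside 2.18% and 0.711% of all genes, and at day 14, 5 were higher and 0 lower, beside 3.11% and 0.603%. Penk is among the 2 lower and the 5 higher. It had 33, 1 and 133 UMIs and passed the limit only through the day 14 library, so its part in these counts is no free result. Gal, the gene of galanin, was at 43.5, 504 and 224 CPM and Npy, neuropeptide Y, at 7.76, 19.4 and 18.4 CPM. Npy rested on few cells, with UMIs in 1.6%, 2.5% and 9.0% of neurons. In deep neurons alone Npy was at 7.70, 20.5 and 12.1 CPM, less than 2-fold above naïve at day 14. Adcyap1, the gene of PACAP, was at 83.5, 234 and 178 CPM and was the gene second most like Tac1 over all gated neurons. Nts was at 62.2, 45.4 and 292 CPM, and Cartpt, the gene of the CART peptides, at 40.8, 16.7 and 21.8 CPM. Penk, which encodes enkephalins, was at 3.88 and 10.5 CPM in the naïve and day 14 libraries, with 1 UMI at day 7. Its UMIs were found in 4.0%, 0.5% and 8.3% of neurons. Nmb, neuromedin B, was at 155, 139 and 154 CPM.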

How the data were processed

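UMI counts of single DRG cells were measured in 1 naïve, 1 day 7 and 1 day 14 library. The authors deposited raw whole counts per gene and cell, made with Cell Ranger 3.0.2 and build mm10 per the labels' processing notes. Filters other than the calling of cell barcodes are not given in the sources used here, the annotation is not given either, and the paper's methods do not cover these libraries. Its methods name female mice, and its text calls the injury of the single-cell samples a partial ligation of the sciatic nerve, whereas the labels say male mice and SNI. The labels were followed. Reads were counted per gene, so transcript forms are summed.

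From these counts, barcodes with under 500 detected genes or over 20% of UMIs from mitochondrial genes were dropped, leaving most barcodes (3152 of 3748 barcodes, 2682 of 3281 and 3828 of 4908, from 23107376, 22343246 and 36550911 UMIs). Neurons were gated and other cells classed by marker genes. Types were scored in neurons of at least 10000 UMIs, and a type needed at least 2 usable markers, so Mrgpra3 and Foxp2 cells were not called. Results of 1 further type are not reported here, although its cells stay in the sums over all neurons and in the weighting by type. Sums were divided by all UMIs of the same cells and scaled to CPM. Intervals are exact (Poisson, Clopper-Pearson, conditional binomial) at 95%. Where a count was 0, a set floor of 3 counts is given, which is not the bound of an interval. With 1 library per condition no p-value was computed. Thinned shares are expectations over draws without replacement. The interval, fold and thinning code was tested on simulated data with known changes. Genes named are the 5 peptide genes, 3 lists (peptide processing, receptors and clearance, other peptides) and the 5 genes most like each by rank correlation. The peptide genes and lists were chosen with earlier results of these data known. Alternatives used scanpy 1.11.5 (with its Scrublet) and leidenalg 0.10.2, and scipy 1.17.1 gave the intervals. Scrublet called 29, 32 and 29 cells, 1 of them a gated neuron.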

Additional observations from a re-analysis of the deposited data

Results flagged for a closer look

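The direction over naïve differed between neuron types for 3 genes, and these differences were not tested. Calca at day 14 had a log2 ratio of 2.36 in Th and Fam19a4 cells and -0.20 in Nefh and Ntrk3 cells. In the former the naïve level was 7.88 CPM, near that of non-neuronal cells. Calcb at day 14 was at 0.27 in Th and Fam19a4 cells and -0.25 in Mrgprd and Lpar3 cells. Tac1 at day 7 was at 1.20 in Th and Fam19a4 cells, where 1 cell reached 5217 CPM, and at -0.55 in Nefh and Ntrk3 cells. Tac1 at day 14 was at 0.86 in Mrgprd and Lpar3 cells and -0.48 in Nefh and Ntrk3 cells. The labels of both the Th and Fam19a4 and the Nefh and Ntrk3 cells are weak.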

How the results depend on the processing

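Log2 ratios over naïve in neurons and the number of the 5 genes past 2-fold were recomputed under 15 alternatives, and in 139 of 210 cases they stayed within the counting interval or the same count. Values by setting follow, each as day 7 and day 14 where both moved. Without the 3 top cells of each gene, Calca was at 0.26 and 1.26, Tac1 0.15 and 1.01, Calcb -0.49 at day 7, Nppb -1.21 and -0.081, and Sst -3.78 at day 7, while Sst at day 14 turned to 0.75. There 2 genes were lower at day 7 and 2 higher at day 14. Without the 1 top cell, Calca was at 0.55 and 1.19, Tac1 0.43 at day 7, Sst -1.93 and -0.43, and Nppb -0.56 at day 14. With every cell weighted equally, Calca turned to -0.13 at day 7 and was 0.85 at day 14, Tac1 turned to -0.90 and was 0.47, Calcb was -0.64 at day 7, Sst -2.61 and -0.37, and Nppb -1.71 and -0.56, with 2 genes lower at day 7 and 0 higher at day 14. With every deep neuron weighted equally, Calca was at 0.32 and 0.88, Tac1 0.44 and 0.62, Sst -0.31 and Nppb -0.55 at day 14, with 0 genes lower at day 7 and 0 higher at day 14.

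With cells under 1000 genes or over 10% mitochondrial UMIs dropped, Calca was at 1.16 at day 7, Tac1 1.07 and 1.03, and Nppb -0.0088 at day 7, with 2 genes higher at each day and 0 lower at day 7. In neurons of at least 10000 UMIs, Calca was at 1.06 and Tac1 at 0.80 at day 7, with 1 gene higher there, and the stricter gate also gave 1. Under median ratio scaling Calca was at 1.06 and Tac1 at 0.80 at day 14. In deep neurons without the injury mark, Calca was at 1.24 and 1.45, Tac1 1.06 and 1.25, Calcb -0.14 and -0.24, Sst -0.62 and -0.14, and Nppb -0.53 at day 14, while Nppb turned to 0.28 at day 7, with 2 genes higher at each day and 0 lower at day 7. With the naïve mix of neuron types, Calca was at 0.50 and 0.16, Tac1 0.26 and 0.035, Calcb -0.12, Sst -1.62 and Nppb -1.68 at day 14, with 0 genes higher and 2 lower at day 14. The last of these, the injury mark, the single top cell and the equal weights of deep neurons were chosen after seeing the data. Beyond fewer or reweighted cells, the cause was not tested. Of 105 shares of cells with a UMI, 36 moved, 18 of them by thinning. No paired analysis was possible because the groups share a single replicate number and nothing was tested. The few itch neurons, the 57 deep neurons at day 7 and the single library of 2 mice per condition limit the precision.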

Other observations

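A few cells with Nppb lay outside the Il31ra and Osmr type. In the Nefh and Ntrk3 cells, 1 of 14 naïve cells held 9 Nppb UMIs, 1 of 13 at day 7 held 10, and 2 of 26 at day 14 held 13 together, at up to 163, 173 and 127 CPM per cell. Conversely, 1 cell scored by Il31ra and Osmr at day 14 held 1672 Calca and 810 Tac1 UMIs, the highest of that library, at 8589.9 CPM of Calca, and had no Nppb. Cells left without a class had Calca at 38.6, 77.2 and 179.7 CPM, from 4, 9 and 33 UMIs.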
